A study of Rattus norvegicus with 12 samples.

Results

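Of the 5 miRs of the miR-200 family (miR-200a, miR-200b, miR-200c, miR-141 and miR-429), 1 had a row in the table of cycle threshold (Ct) values, the assay mmu-miR-200c. It is 1 of 154 miR assays of the table. Its row was chosen by name, and a row exists for an assay selected on detection, with a Ct in all 12 microarrays. The other family members were not analysed here. The 12 arrays came from single dorsal root ganglia (DRG) of adult male Sprague-Dawley rats, collected 23 days after surgery, with 4 arrays each of Sham, Sural-SNI and Tibial-SNI. The study gives the SNI ganglia of its arrays as ipsilateral, the side of the injury. Each surgical group held a replicate 1 and a replicate 2 at the third lumbar level (L3-DRG) and at the fourth (L4-DRG). The spared nerve injury (SNI) leaves 1 branch of the sciatic nerve whole. In Sural-SNI the common peroneal and tibial branches were tied and cut and the sural branch was spared, in Tibial-SNI the common peroneal and sural branches were cut and the tibial branch was spared, and in Sham rats the nerve was exposed and left intact. Per the study, sciatic neurons lie mostly in the L4-DRG and L5-DRG, and those of the uncut saphenous nerve in the L3-DRG. All rats were perfused with cold buffer before the DRG were taken.

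The miR-200 family is best known from epithelia. Its members repress the mRNAs of Zeb1 and Zeb2, transcription factors that in turn silence the E-cadherin gene, and this mutual repression separates epithelial from mesenchymal states. A DRG consists of sensory neuron somata with satellite glia, Schwann cells, vessels and connective tissue, and the family is not among the miRs for which this tissue is known. A whole DRG was measured, so more cells holding a miR and more of it per cell cannot be told apart.

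The mature sequences that could be read are shown with the seed, bases 2 to 8 from the 5′ end, in capitals. They are rat sequences of RefSeq on GRCr8. The gene of miR-200c lies on chromosome 4, minus strand, with the mature 3p arm at chr4:159209969-159209989, and the hairpin of miR-141 lies 346 bases from that of miR-200c.
rno-miR-200c-3p: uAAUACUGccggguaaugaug
rno-miR-141-3p: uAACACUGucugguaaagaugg
rno-miR-200c-5p: cGUCUUACccagcaguguuug
Over the first 21 bases, miR-200c-3p and its neighbour miR-141-3p differed at 4 positions, counted from 1 at the 5′ end with the base of miR-200c-3p first: U4C, C9U, G11U and U17A. Only U4C lies within the seed, so these neighbours belong to different seed groups. The hairpins of miR-429, miR-200a and miR-200b lie together on chromosome 5 within 1908 bases. The assay carries the mouse name of miR-200c without an arm, and its probe sequence was not used here.

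The Ct is the PCR cycle at which product is seen, so that a lower Ct means more template. In Sham the miR-200c Ct was 32.6 and 31.2 in the L3-DRG arrays and 32.3 and 31.1 in the L4-DRG arrays, with replicate 1 first. In Sural-SNI it was 31.8 and 30.8 in L3-DRG and 31.1 and 29.9 in L4-DRG. In Tibial-SNI it was 32.7 and 30.0 in L3-DRG and 33.0 and 31.9 in L4-DRG. In each of the 6 groups the array of replicate 1 had the higher Ct, and the mean over 12 arrays was 31.5 ± 1.01 cycles (SD, n = 12). That mean was the 131st lowest of the 154 assays, whose median was 29.2 cycles, and in single arrays the place of miR-200c ran from 114 to 147. The assays' efficiencies differ, so this order is one of Ct and not of molecules. By contrast miR-182, a miR of the sensory neuron cluster, had the 5th lowest mean Ct of the assays, at 23.5 cycles.

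The mean Ct of the card differed between the replicate numbers. The mean Ct of an array ran from 27.2 to 30.5 cycles, with a mean of 29.9 in replicate 1 and 27.8 in replicate 2, and the 3 small RNAs used as references did not shift alike. The mean Ct of snoRNA135 was 32.9 in replicate 1 and 28.9 in replicate 2, that of U87 was 27.3 and 25.8, and that of MammU6 was 17.6 and 18.5, the opposite direction. For this reason the level of miR-200c is given as −ΔCt, the mean Ct of the 3 references minus the Ct of miR-200c, a log2 scale on which 1 unit is a 2-fold change, and log2(fold change) is taken against Sham, each SNI array being set against the Sham array that shares its level and number.

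On the −ΔCt scale the Sham values of miR-200c were -6.39 and -6.38 in L3-DRG and -6.95 and -6.93 in L4-DRG. In Sural-SNI they were -5.90 and -6.13 in L3-DRG and -6.22 and -6.02 in L4-DRG. In Tibial-SNI they were -5.85 and -5.76 in L3-DRG and -6.54 and -7.22 in L4-DRG. All 8 SNI arrays except replicate 2 of Tibial-SNI L4-DRG were above the Sham array of their level and number. The 2 Tibial-SNI L4-DRG arrays stood on either side of the Sham L4-DRG arrays and were the most spread of the groups.

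**Figure D1:**
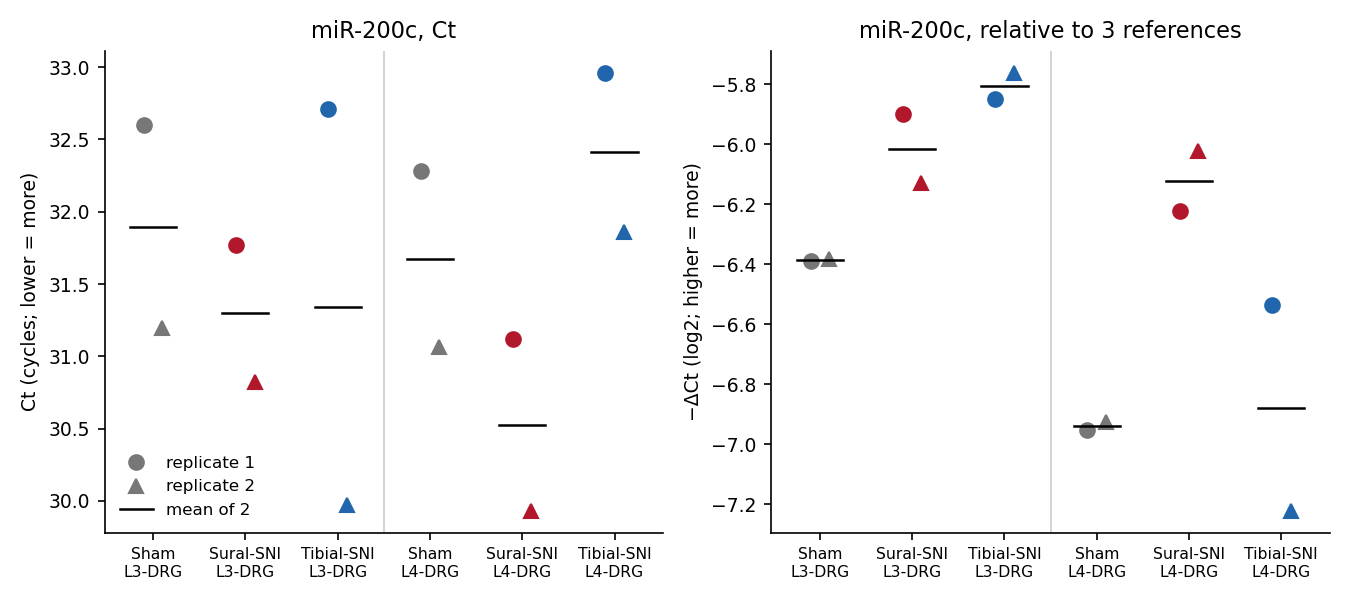
miR-200c in each of the 12 arrays, as Ct in cycles (left) and as −ΔCt on a log2 scale (right), by surgical group and DRG level, with circles for replicate 1, triangles for replicate 2 and bars for the mean of 2. Replicates 1 and 2 are apart in Ct in every group and draw together on the −ΔCt scale, where the Sham L4-DRG arrays lie at -6.95 and -6.93.

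Ordered by mean −ΔCt, miR-200c was highest in Tibial-SNI L3-DRG (-5.80 ± 0.061, SD, n = 2), followed by Sural-SNI L3-DRG (-6.02 ± 0.16), Sural-SNI L4-DRG (-6.12 ± 0.14), Sham L3-DRG (-6.39 ± 0.0034), Tibial-SNI L4-DRG (-6.88 ± 0.48) and Sham L4-DRG (-6.94 ± 0.018). The SD within groups, pooled over the 6 groups, was 0.22. The first 3 groups of that order were apart from their neighbours by 0.21 and 0.11, less than this SD, and the last 2 groups by 0.06. Sural-SNI L4-DRG was above Sham L3-DRG by 0.26, and Sham L3-DRG was above Tibial-SNI L4-DRG by 0.49, the widest gap. The order was not tested.

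The comparison of each injury with Sham within a level asks whether miR-200c changed where the neurons of cut branches lie and where they do not. This contrast is the one named in choosing the assay, so its values are a description without a test. In L3-DRG, the log2(fold change) after Sural-SNI was 0.49 in replicate 1 and 0.25 in replicate 2, a mean difference of 0.37 (SE 0.41 from limma, n = 2 arrays of each group). After Tibial-SNI in L3-DRG it was 0.54 and 0.62, a mean of 0.58 (SE 0.41). Both L3-DRG groups of SNI were therefore above Sham in both arrays. The median difference over all 154 assays in the same L3-DRG contrasts was 0.33 for Sural-SNI and 0.47 for Tibial-SNI, and 72 and 66 assays had a higher difference than miR-200c. In L3-DRG miR-200c lay near the middle of the card.

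In L4-DRG the injuries stood apart. After Sural-SNI the log2(fold change) of miR-200c was 0.73 and 0.90, fold changes of 1.66 and 1.87 with a mean of 0.82 on the log2 scale (SE 0.41), whereas the median of all assays was -0.04. Of the 153 other assays, 6 had a higher difference than miR-200c in that contrast. After Tibial-SNI the log2(fold change) in L4-DRG was 0.42 in replicate 1 and -0.30 in replicate 2, a mean of 0.06 (SE 0.41) beside a median of 0.00 over all assays. The array of replicate 2 of Tibial-SNI L4-DRG was the 1 SNI array below Sham. Without it the mean was 0.40, and without replicate 1 it was -0.28. Over both levels the difference from Sham was 0.59 (SE 0.29) for Sural-SNI and 0.32 (SE 0.29) for Tibial-SNI.

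As background for these counts, all 4 Sural-SNI arrays were above their Sham array for miR-200c and for 16 of the 154 assays (10.4%), and 7 or more of the 8 SNI arrays were above Sham for 23 assays (14.9%). In the limma fit across all assays with Benjamini-Hochberg adjustment, 0 of 154 assays (0%) had an adjusted p under 0.05 in each of the 4 SNI against Sham contrasts within a level. At an unadjusted p under 0.05 there were 3 assays for Tibial-SNI in L3-DRG and 0 in each of the other 3 contrasts. With the arrays paired by number in a replicate block, 17 assays in L3-DRG and 7 in L4-DRG for Sural-SNI, and 29 and 6 for Tibial-SNI, were under that unadjusted limit, again 0 with an adjusted p under 0.05.

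The choice of reference moved the L3-DRG means of miR-200c and left the Sural-SNI L4-DRG mean, but not its SE. Relative to the mean Ct of all 154 miR assays, the mean log2(fold change) in L3-DRG was 0.042 after Sural-SNI and 0.12 after Tibial-SNI, against 0.84 after Sural-SNI in L4-DRG. Over the 6 references tried, the Sural-SNI L4-DRG mean of miR-200c ran from 0.77 with U87 alone to 0.87 with MammU6 alone. Its SE ran from 0.41 with the mean of 3 references to 1.63 with snoRNA135 alone and 1.85 with MammU6 alone. All 4 Sural-SNI arrays were above Sham under each of these references, though relative to all miR assays the L3-DRG arrays were above by only 0.038 and 0.045. The share of all assays with this count was obtained only with the mean of 3 references. For Tibial-SNI the count of arrays above Sham was 2 of 4 relative to all miR assays and 4 of 4 relative to snoRNA135 and U87, and 3 of 4 under each of the other 4 references. In L4-DRG its mean turned to -0.17 with MammU6 alone. The place of miR-200c among the assays within a contrast cannot change with the reference, since a reference shifts every assay alike.

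**Figure D2:**
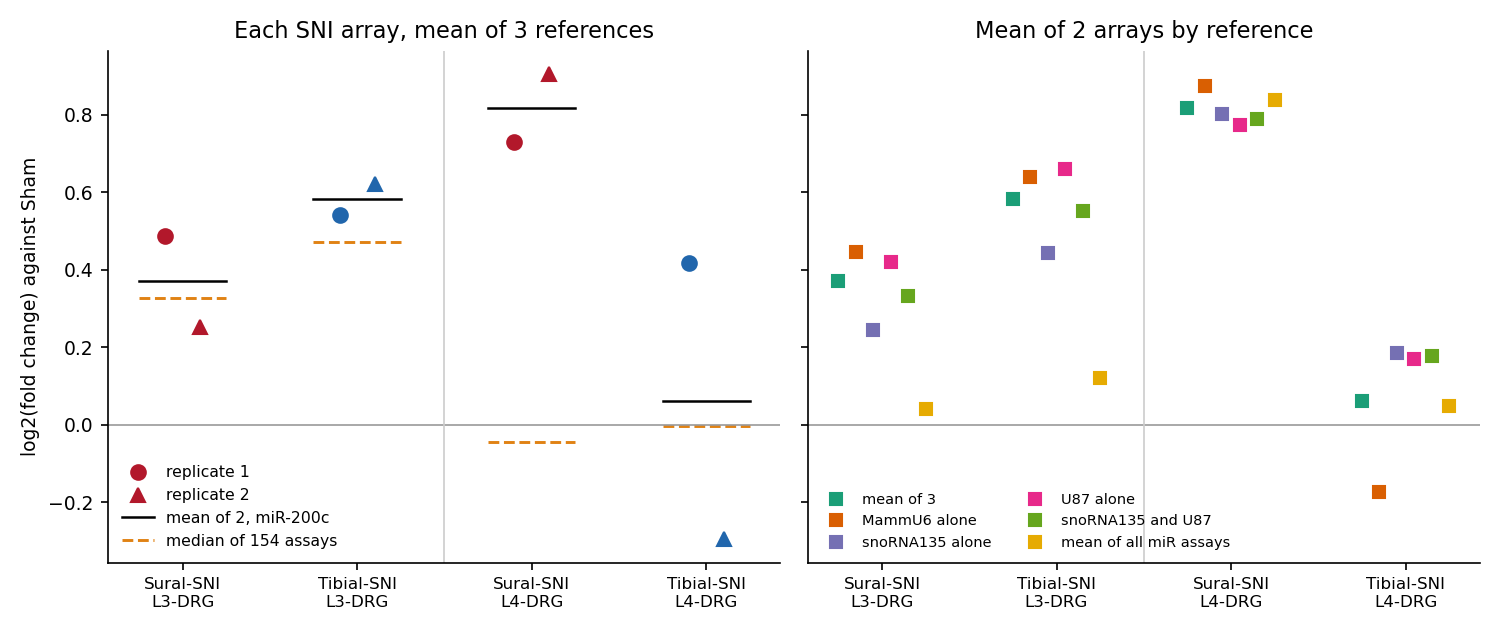
log2(fold change) of miR-200c against Sham, with both panels on the same axis. Left, the single SNI arrays (circle replicate 1, triangle replicate 2), their mean (solid bar) and the median of all 154 assays (dashed bar). Right, the mean of 2 arrays with each of 6 references. In Sural-SNI L4-DRG miR-200c lies at 0.82 and the median of the card at -0.04. The gap is the same under every reference by arithmetic, since a reference shifts all assays alike.

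The direct comparison of the injuries was tested. It uses the log2(fold change) values against Sham described above, so it is not independent of them. Over both levels, miR-200c was 0.27 lower on the log2 scale in Tibial-SNI than in Sural-SNI, at a mean log2(fold change) of 0.32 ± 0.42 against 0.59 ± 0.28 (SD, n = 4 arrays each). The difference of -0.27 (SE 0.31, 95% interval -0.97 to 0.42) did not pass the test, with an adjusted p of 0.995 in limma over 154 assays, and without replicate 2 of Tibial-SNI L4-DRG it was -0.067. An exact two-sided permutation test over the 70 splits of the 8 SNI arrays gave p = 0.371. The smallest p these splits allow is 0.0286, and they do not keep the pairing by number. With same-numbered arrays paired, an exact two-sided test by sign flips of the 4 differences, added after seeing the data, gave p = 0.75. The smallest p of that paired test is 0.125, so it could not have passed at 0.05. The interval includes differences of more than 0.9 in favour of Sural-SNI, so that a similar level in both injuries was not shown. Of the 154 assays, 1 (0.649%) had an adjusted p under 0.05 in this comparison, miR-325, and with the replicate block it was 0. In the study the array difference of miR-325 was not reproduced by qPCR, even with the same RNA.

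By level, the Tibial-SNI minus Sural-SNI difference of miR-200c took opposite signs. In L3-DRG the same-numbered arrays differed by 0.05 and 0.37, a mean of 0.21 with Tibial-SNI higher. In L4-DRG they differed by -0.31 and -1.20, a mean of -0.76 with Tibial-SNI lower. The difference between the levels, a test added once these values were seen, was -0.97 (SE 0.57, 95% interval -2.29 to 0.35) with an adjusted p of 0.996 in limma, and did not pass. It combines the SNI against Sham differences that are described without a test, so its p is not independent of them. In that comparison 0 of 154 assays (0%) had an adjusted p under 0.05, 1 assay had an unadjusted p under 0.05, and 8 had one with the replicate block.

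The comparison of the levels asks whether the amount of miR-200c differed between an L4-DRG and an L3-DRG whatever the surgery. On the −ΔCt scale miR-200c was -6.07 ± 0.27 in the 6 L3-DRG arrays and -6.65 ± 0.47 in the 6 L4-DRG arrays (SD), a difference of -0.58 (SE 0.24, 95% interval -1.11 to -0.05). The L4-DRG array was below the L3-DRG array of the same group and number in 5 of 6 pairs, as in 28 of the 154 assays (18.2%). The pairs differed by -0.56 and -0.54 in Sham, by -0.32 and 0.11 in Sural-SNI and by -0.69 and -1.46 in Tibial-SNI, so the exception was replicate 2 of Sural-SNI. An exact two-sided permutation of the levels within surgical groups gave p = 0.0185 (0.037 adjusted over the 2 contrasts tested in this way), but it does not keep the pairing by number. With the arrays paired, an exact two-sided test by sign flips of the 6 differences, added after seeing the data, gave p = 0.0625 (0.125 adjusted over the 2 contrasts), where the smallest p allowed is 0.0312, and did not pass. Across the assays the limma test did not pass, with an unadjusted p of 0.0361 and an adjusted p of 0.987, and with the replicate block the adjusted p was 0.490.

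miR-200c was 1 of 3 assays (1.95%) with an unadjusted p under 0.05 for L4-DRG against L3-DRG, the others being miR-365 and miR-539, which were chosen for naming by this count. With an adjusted p under 0.05 there were 0 (0%), and with the replicate block 11 assays had an unadjusted p under 0.05. The difference of miR-200c was present only relative to other RNAs. Its own Ct differed by 0.02 cycles between L4-DRG and L3-DRG, while the L4-DRG minus L3-DRG difference in Ct was -0.37 cycles for MammU6, -0.73 for snoRNA135, -0.56 for U87 and -0.52 for the mean of all miR assays. Under the other references the L4-DRG minus L3-DRG difference of miR-200c ran from -0.39 with MammU6 alone to -0.75 with snoRNA135 alone. The unadjusted limma p was 0.674 with MammU6 alone, 0.387 with snoRNA135 alone, 0.183 with snoRNA135 and U87, 0.114 with all miR assays and 0.038 with U87 alone. Without replicate 2 of Tibial-SNI L4-DRG, the difference was -0.43.

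**Figure D3:**
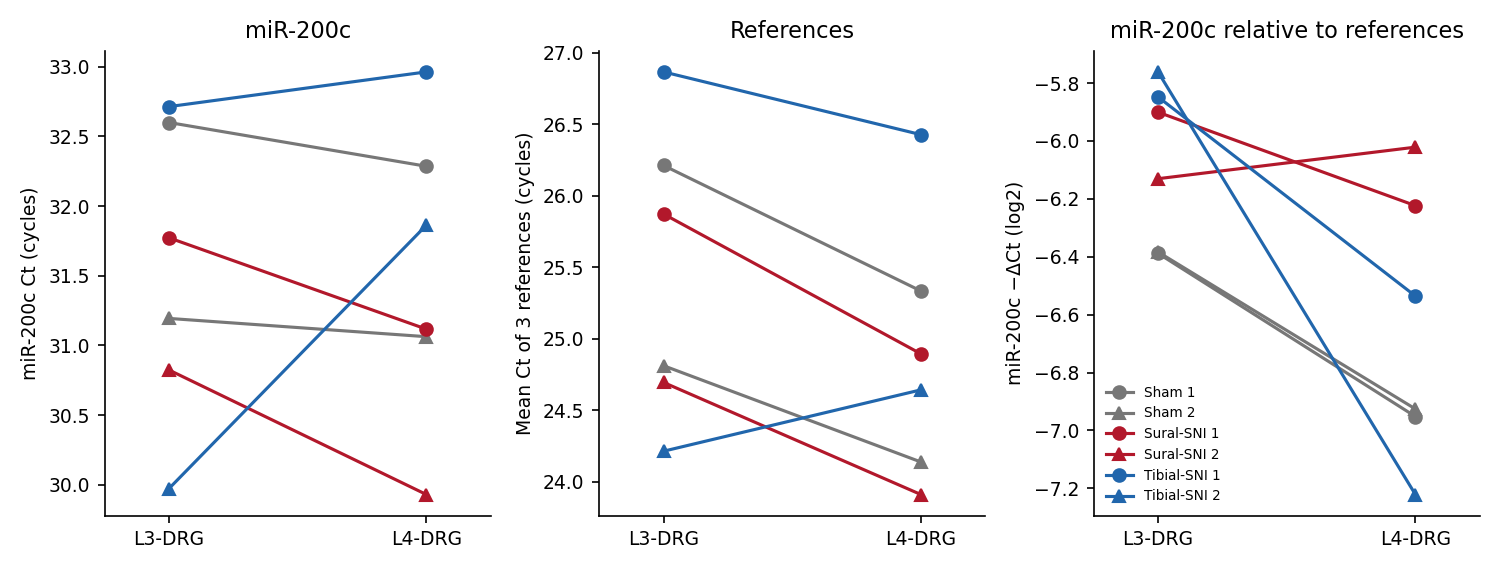
L3-DRG and L4-DRG arrays of the same surgical group and number joined by lines, for the Ct of miR-200c (left), the mean Ct of the 3 references (middle) and −ΔCt of miR-200c (right). The references fall from L3-DRG to L4-DRG in all pairs but replicate 2 of Tibial-SNI, while the Ct of miR-200c goes both ways, and −ΔCt falls in 5 of 6 pairs.

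The 2 arrays of a group agreed more closely for miR-200c than for most assays. Its SD within groups of 0.22 on the −ΔCt scale compared with a median of 0.83 over all assays, and 2 assays had a smaller one. The 10 assays nearest to it in mean Ct, at 31.3 to 31.7 cycles, had an SD within groups between 0.62 and 2.63, so 0 of these 10 were tighter. The mean −ΔCt of replicate 1 minus that of replicate 2 was 0.10 for miR-200c and -0.52 for the median assay. This closeness depended on the reference. With U87 alone the SD was 0.26 and 2 assays were smaller, but with all miR assays as the reference it was 0.55 and 41 assays were smaller. With MammU6 alone and with snoRNA135 alone it was 1.69 and 1.78, and 50 and 94 assays were smaller.

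**Figure D4:**
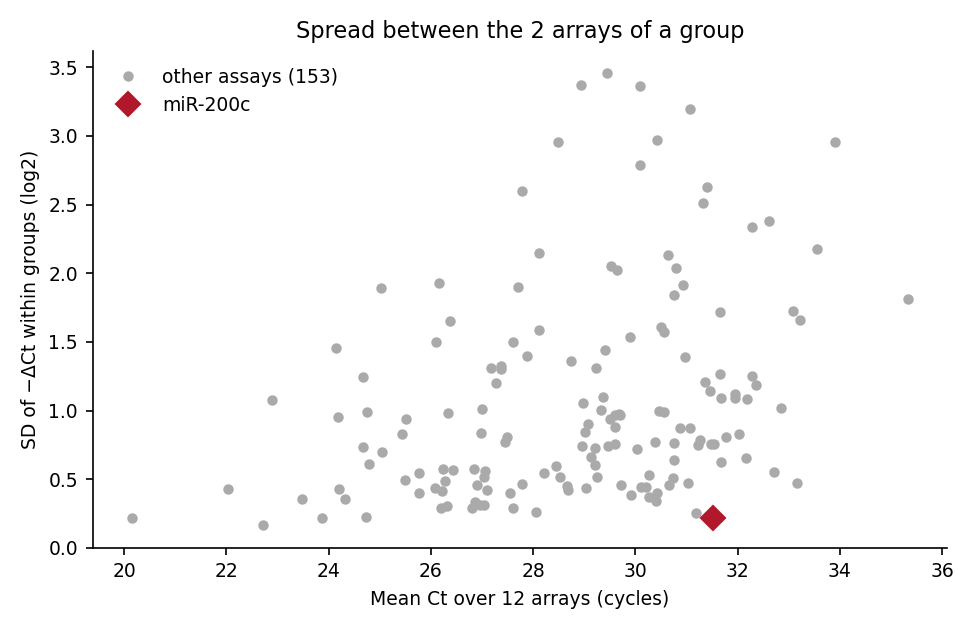
SD of −ΔCt within groups, pooled over the 6 groups of 2 arrays (log2), against the mean Ct over 12 arrays (cycles), with 1 point for each of 154 assays. miR-200c (diamond) lies at 31.5 cycles and 0.22, below the other assays of similar Ct.

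Other miRs of epithelia were read from a list of 8, of which miR-203, miR-192, miR-31 and miR-184 had a row and miR-205, miR-194, miR-215 and miR-375 were not analysed here. miR-203, which restrains proliferation as keratinocytes differentiate, had a mean Ct of 30.4, and its mean log2(fold change) over 4 arrays (± SD) was 0.17 ± 0.53 after Sural-SNI and 0.35 ± 0.50 after Tibial-SNI. In L4-DRG after Sural-SNI, where miR-200c differed from Sham by 0.82, miR-203 differed from Sham by -0.18, miR-192 by -0.26, miR-31 by 0.00 and miR-184 by 0.68. The list's median there was -0.09 beside -0.04 for all assays, and in L3-DRG it was 0.48 for Sural-SNI and 0.50 for Tibial-SNI, beside 0.33 and 0.47. In L4-DRG after Tibial-SNI it was -0.07. Summed over its 4 assays, the level of the list ran between -3.52 and -3.09 in Sham, between -3.34 and -2.74 after Sural-SNI, and between -3.77 and -2.63 after Tibial-SNI (−ΔCt, log2 of the sum), so the groups overlapped. Between injuries 0 of 4 assays passed (median 0.02), and between levels 0 of 4 (median -0.03). Of the multiciliated epithelium's miRs, miR-34b-3p and miR-449a had a row and miR-34c was not analysed here. miR-34b-3p differed from Sham by 0.00 and miR-449a by 0.37 in Sural-SNI L4-DRG, and their median in Tibial-SNI L4-DRG was 0.64. In L3-DRG their median was 1.03 after Sural-SNI and 1.60 after Tibial-SNI, above the 0.33 and 0.47 of all assays, and 0 of 2 passed either tested comparison (medians 0.51 between injuries and 0.29 between levels).

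The miRs of sensory neurons lay below Sham in L4-DRG and mostly above it in L3-DRG. Of the sensory neuron list, miR-182, miR-183, miR-137 and miR-9 had a row, and all 4 were below Sham in Sural-SNI L4-DRG, between -0.73 and -0.36 with a median of -0.68. In Tibial-SNI L4-DRG all 4 were below Sham as well, with a median of -0.47. Of all 154 assays, 72 and 76 were above Sham in these L4-DRG contrasts. In L3-DRG 3 of the 4 were above Sham after Sural-SNI (median 0.65) and 4 of 4 after Tibial-SNI (median 0.49), as were 119 and 128 of all assays. Between levels the median of these 4 was -0.42 and 0 passed, beside -0.58 for miR-200c and -0.01 for all assays, and between injuries it was 0.08 with 0 passing. The glial miR-338-3p and miR-204 differed from Sham by 0.61 and -0.47 in Sural-SNI L4-DRG, and 0 of 2 passed between injuries (median -0.42) or levels (median -0.27).

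Lists for cells that could come with a DRG were read in the same way, and 0 of their assays passed either tested comparison. The study reported miR-1, miR-133b, miR-143 and miR-145, which are on these lists, as higher in Tibial-SNI than in Sural-SNI. Its arrays were judged by an unadjusted one-tailed test at P under 0.09, and qPCR in 4 rats per group again found the difference. In Sural-SNI L4-DRG the median difference from Sham was -0.73 for 4 skeletal muscle assays, 0.11 for 2 vascular smooth muscle assays, -0.04 for 2 endothelial assays, 0.49 for the red blood cell miR-486 and 0.17 for 5 leukocyte assays, against 0.82 for miR-200c. For Tibial-SNI minus Sural-SNI, the medians were 1.23 for skeletal muscle, 0.97 for vascular smooth muscle, 0.40 for endothelium, -0.14 for miR-486 and 0.09 for leukocytes, beside -0.27 for miR-200c. The summed level of the skeletal muscle assays ran between 0.59 and 1.73 in Sham, between -0.17 and 1.35 after Sural-SNI, and between 0.0068 and 4.41 after Tibial-SNI. For L4-DRG minus L3-DRG the medians were 0.25, -0.12, 0.07, -0.04 and 0.23 in that order. The part of these cells in the values of miR-200c was not tested.

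The assays whose pattern was most like miR-200c were found by Pearson's r over the 12 arrays, with the mean of each replicate number taken from −ΔCt. They were miR-450a (r = 0.73), miR-365 (0.62), miR-652 (0.60), miR-351 (0.57) and miR-672 (0.56), against a median of 0.19 over the 153 other assays. The genes of miR-450a and miR-351 lie in one cluster on the X chromosome, with that of miR-542-5p, which was not among the 5. The r given for miR-351 is that of the assay with the rat name, rno-miR-351. A second assay of it, mmu-miR-351, was not among the 5. For L4-DRG minus L3-DRG, mmu-miR-351 differed by 0.45 and miR-542-5p by 0.21, against -0.62 for miR-450a, -0.18 for rno-miR-351 and -0.58 for miR-200c. Within an array all assays share the references, so the correlations are not of independent measurements. Relative to all miR assays the same 5 led, with r of 0.67 for miR-450a, and the median fell to 0.00. Without centring on the numbers 2 of the 5 remained among the leading 5, miR-365 and rno-miR-351. The r of miR-450a then fell to 0.42, at rank 6, and that of miR-652 to 0.04, at rank 81. The r of miR-672 rested on 1 array, since without replicate 2 of Tibial-SNI L4-DRG it was 0.06. Leaving out each array in turn, an alternative chosen after seeing the data, kept the r of miR-450a between 0.68 and 0.80.

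**Figure D5:**
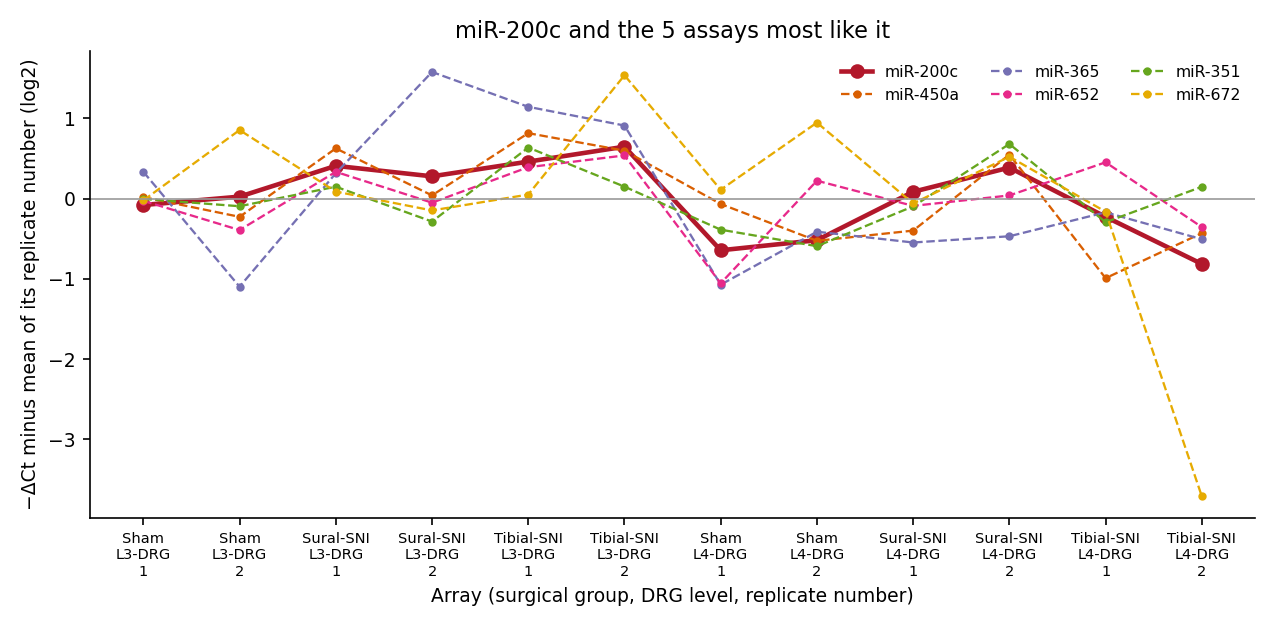
−ΔCt of miR-200c (thick line) and of the 5 assays with the highest r to it, after subtraction of the mean of each replicate number (log2), over the 12 arrays. Lines join arrays for reading only. miR-200c runs from -0.81 to 0.65 and miR-450a (r = 0.73) from -0.99 to 0.81, whereas miR-672 drops to -3.71 in replicate 2 of Tibial-SNI L4-DRG.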

How the data were processed

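Total RNA of 12 single DRG was run on the TaqMan rodent miR card, and Ct values of 40-cycle PCR without a Ct limit were deposited for miRs detected in every array. The authors also deposited fold changes of the SNI arrays. Of these, 98.9% (1219 of 1232) were within 0.01 (log2) of ΔΔCt against the Sham array of the same level and number, and 4 Sham columns of that table held no values. That Sham term was therefore used. MammU6 (mean of 4 wells), snoRNA135 and U87 were the references. Each of the 154 assays was fitted with limma 3.58.1 in R 4.3.3, on 8 log2(fold change) values for Tibial-SNI against Sural-SNI and on 12 −ΔCt values, with the surgical group as a covariate, for L4-DRG against L3-DRG, with Benjamini-Hochberg adjustment (threshold 0.05). The code of the fits was run on simulated data. These had independent noise without a replicate effect, an SD capped below the median SD within groups, and larger changes than those of miR-200c. That run therefore does not show how the fits perform on these arrays. SNI against Sham was fitted with 6 group means, and its miR-200c values carry no p. Other tools were Python 3.11.15, pandas 2.3.3, numpy 2.4.6 and matplotlib 3.10.9. Sequences came from the RefSeq table of 693 mature rat miRs.

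Deviations from the mean of the surgical group correlated among arrays of the same level and number (r from 0.46 to 0.81 over 12 pairs) and opposed those of the other number (-0.70 to -0.56), with a first component of 70.6% of the variance that separated the numbers. The numbers were therefore taken to pair the arrays, as a data check, since the labels do not say what a number marks. Nothing in the labels says which arrays share a rat, so p-values measure the spread between these arrays. Arrays are few, and their number limits the precision. Named assays were miR-200c, the references, members of the cell type lists, the 5 assays with the highest r and, by range, the 10 nearest in Ct. The assays mmu-miR-351 and miR-542-5p were added for their cluster. The lists covered epithelium, multiciliated epithelium, leukocyte, red blood cell, endothelium, vascular smooth muscle, skeletal muscle, glia and sensory neuron. The assay, lists and tests were chosen with earlier results of these data known. Alternatives were 5 other references, Ct limits of 35 and 32, another Sham term, the deposited fold changes, replicate blocks, DRG level as a covariate, the methods' one-tailed test and leaving out each array.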

Additional observations from a re-analysis of the deposited data

How the results depend on the processing

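The number of assays differing between Tibial-SNI and Sural-SNI was 1 in limma and fell to 0 with each of the 5 other references, with Ct limits of 35 and 32, with both Sham arrays of a level averaged, with the replicate block, and without each of the 12 arrays in turn (range 0 to 0). It was 1 with DRG level as a covariate, with the deposited fold changes and with the methods' one-tailed test after Benjamini-Hochberg adjustment, and 17 by that test unadjusted at the methods' threshold of 0.09 (14 under 0.05). Between levels it was 0 under all alternatives run. For miR-200c, Tibial-SNI minus Sural-SNI stayed below 0, from -0.43 with MammU6 alone to -0.18 with U87 alone, and from -0.39 to -0.07 without single arrays, the latter without replicate 2 of Tibial-SNI L4-DRG. L4-DRG minus L3-DRG stayed below 0 likewise, from -0.75 to -0.39 and from -0.67 to -0.43, and neither passed in limma after adjustment over all assays under any alternative. The exact permutation test of L4-DRG minus L3-DRG passed over its 2 contrasts (adjusted p = 0.037), and its paired form with the replicate block, added after seeing the data, did not (-0.58, adjusted p = 0.125). Against Sham in L3-DRG, the mean of all miR assays as the reference moved Sural-SNI to 0.042 and Tibial-SNI to 0.12. Tibial-SNI in L4-DRG moved to -0.17 with MammU6 alone and ran from -0.28 to 0.40 without single arrays. The replicate block left the miR-200c differences as they were and gave SEs of 0.31 for Tibial-SNI minus Sural-SNI and 0.20 for L4-DRG minus L3-DRG (-0.27 and -0.58), and with a block by group and number the latter SE was 0.22. For each SNI against Sham difference of miR-200c within a level, the replicate block gave an SE of 0.30, beside 0.41 without it. In limma the replicate block changed no call beside the count between injuries. Of the 5 assays most like miR-200c, 2 to 5 were shared without single arrays. The highest Ct of miR-200c was 33.0, so it was among the 134 assays under a Ct of 35 and not among the 87 under 32.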
